A study of Homo sapiens with 6 samples.

Results

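This report describes the DPF3a binding sites of 786-O cells that were shared with p300 but not with SMAD4. A DPF3a peak was a member when it overlapped a p300 peak by at least 0.5 of both peaks and overlapped no SMAD4 peak by that much. By this rule 711 of 51530 DPF3a peaks were members. The rule left room for a smaller overlap, and 560 of the 711 members (78.8%, 95% Wilson interval 75.6 to 81.6) touched a SMAD4 peak by 1 bp or more. Only 151 members (21.2%, 18.4 to 24.4) touched no SMAD4 peak at all. The label of these sites as lying without SMAD4 therefore held for about 1 in 5 of them, and both parts are described separately.

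Binding was mapped by chromatin immunoprecipitation and sequencing (ChIP-seq) in 786-O, a cell line established from a clear cell renal carcinoma. There were 6 samples, with 2 replicate libraries for each of 3 factors. DPF3a was precipitated through an HA tag from cells overexpressing HA-tagged DPF3a, and its chromatin was fixed with a protein-protein crosslinker on top of formaldehyde. Antibodies to the proteins themselves were used for SMAD4 and p300, with formaldehyde as the single fixative. Whether those cells overexpressed DPF3a as well is not stated in the labels, and all groups are the same cell line. Each factor has 1 peak list made from both libraries, so no spread between replicates can be given. Regions are not replicates, and the intervals printed here are 95% intervals that cover counting error only. Factor, fixation, antibody and depth cannot be told apart between lists.

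DPF3a, the shorter product of the DPF3 gene, belongs to the SWI/SNF (BAF) complexes, which slide and evict nucleosomes at promoters and enhancers. p300, the product of EP300, is a coactivator that acetylates histones and is recruited by many transcription factors to both kinds of element. SMAD4 is the partner of the receptor-activated SMAD proteins, with which it enters the nucleus and carries TGF-β and BMP signals to DNA. The study looked for places on chromatin where DPF3a, SMAD4 and p300 coincide, and the sites described here are those where SMAD4 was not counted.

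The sequences around the DPF3a summits, the positions of highest read pileup, show the 2 kinds of member. Each line gives 101 bp of the plus strand of hg38 centred on the summit. The first 4 are the members of highest rank that touched no SMAD4 peak and held an AP-1 match, where rank is the product of the percentiles of DPF3a and p300 fold enrichment. Capitals mark the AP-1 match (TGACTCA or TGAGTCA). These windows lie far from known starts and hold few CpG dinucleotides.
Intron of the non-coding gene MIR548XHG, chr21:18756390-18756490: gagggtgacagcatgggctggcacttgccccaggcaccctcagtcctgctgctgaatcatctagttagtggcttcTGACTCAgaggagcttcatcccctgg
Intergenic, upstream of CDH6, chr5:30918262-30918362: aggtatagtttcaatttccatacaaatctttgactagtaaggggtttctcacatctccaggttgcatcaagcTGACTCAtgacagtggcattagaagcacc
Intergenic, upstream of MKI67, chr10:128629486-128629586: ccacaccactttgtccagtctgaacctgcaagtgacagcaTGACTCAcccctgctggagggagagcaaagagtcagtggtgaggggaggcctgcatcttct
Intergenic, downstream of the ABHD5 start, chr3:43817975-43818075: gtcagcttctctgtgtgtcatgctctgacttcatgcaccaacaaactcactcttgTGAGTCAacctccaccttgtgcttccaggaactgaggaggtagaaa

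The next 3 are the CpG-rich promoter members of highest rank that touched a SMAD4 peak and held an SP/KLF match. Capitals mark SP/KLF matches (GGGCGG, or CCGCCC on the other strand) and the GC-rich SMAD element GGCGCC. In both sets the window had to overlap no annotated exon.
EGLN1 promoter, chr1:231422428-231422528: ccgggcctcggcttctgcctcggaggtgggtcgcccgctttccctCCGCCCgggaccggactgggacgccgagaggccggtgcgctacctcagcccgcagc
APH1B promoter, chr15:63277261-63277361: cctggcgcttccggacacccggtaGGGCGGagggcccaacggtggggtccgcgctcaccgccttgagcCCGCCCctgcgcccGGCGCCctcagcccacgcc
SLFN11 promoter, chr17:35374473-35374573: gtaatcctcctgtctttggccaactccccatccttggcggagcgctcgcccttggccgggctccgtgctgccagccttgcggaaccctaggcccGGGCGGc

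The EGLN1 and APH1B windows each held 13 CpG dinucleotides, with a GC content of 76.2% and 79.2%. The first 4 windows held 0 CpG dinucleotides each, with a GC content between 41.6% and 58.4%. These examples were picked for their motifs and show no frequency, which is given below over all members.

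The members that touched SMAD4 were examined first. In most of them the SMAD4 peak was too wide to be covered to 0.5 by the DPF3a peak. Of the 560, 507 (90.5%) covered less than 0.5 of the SMAD4 peak while at least 0.5 of the DPF3a peak was covered, 50 covered less than 0.5 of the DPF3a peak alone, and 3 fell short on both. The DPF3a peak lay wholly inside the SMAD4 peak in 398 members (71.1%, 67.2 to 74.7). The SMAD4 peak was at least 2 times as wide in 476 (85.0%, 81.8 to 87.7). Its median width was 1232 bp (quartiles 924.5 and 1483), whereas the DPF3a peak had a median of 513 bp (quartiles 401.75 and 631.25). In the whole SMAD4 list the median was 548 bp, and in the whole DPF3a list 533 bp. These widths are part of what the rule used and are given as a description, without a test.

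**Figure D1:**
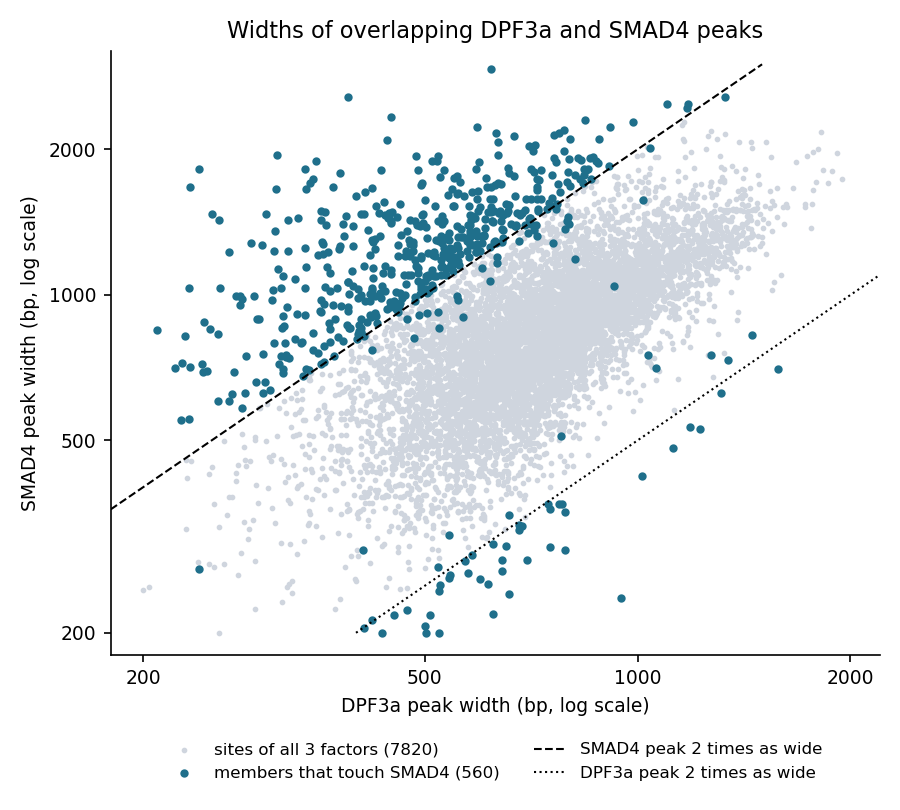
Width of the DPF3a peak (x axis, bp, log scale) against width of the SMAD4 peak it overlaps most (y axis, bp, log scale) for the 560 members that touch SMAD4 (blue points) and the 7820 sites of all 3 factors (grey points). The dashed and dotted lines mark SMAD4 and DPF3a peaks 2 times as wide as the other, and 476 of the 560 members lie on or above the dashed line.

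The summits of the 3 factors were close together at these members. The overlap that chose them limits these distances, which are given as a description. The SMAD4 summit lay within 200 bp of the DPF3a summit in 419 of 560 members (74.8%, 71.1 to 78.2) and within 50 bp in 209. It lay inside the DPF3a peak in 454 (81.1%, 77.6 to 84.1). The median distance between the DPF3a and SMAD4 summits was 79 bp (quartiles 32 and 202.25), and that between the DPF3a and p300 summits was 84 bp (quartiles 34.75 and 161.25). At sites of all 3 factors the same distances had medians of 59 bp and 104 bp. The p300 peak of 228 members (40.7%) was itself shared with SMAD4 at 0.5 of both peaks. The SMAD4 peaks of these members were above the median of their list. Their median fold enrichment, the pileup at the summit over the local background with 1 added to each, was 7.30 (quartiles 6.03 and 8.71), against 6.30 in the whole SMAD4 list and 8.89 at sites of all 3 factors. Their summits held a median of 79 reads, against 39 in the whole list and 78 at sites of all 3 factors. The rule chose these members partly by wide SMAD4 peaks, so these values are a description.

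Several members sat beside the threshold. The smaller overlap fraction with SMAD4 was 0.45 or more in 176 of 560 members, and under 0.55 in 246 of 7820 sites of all 3 factors. The members just inside the rule were near MYO10 and SUCLA2 (0.499351 each) and RIPPLY1 (0.499457). DPF3a peaks just outside it included those near C9orf50 (0.500595) and GOLPH3L (0.500858), which counted as sites of all 3 factors. On the p300 side, the members of lowest overlap were near C10orf67 (0.5), ANP32B (0.500752) and TMSB10 (0.500888). DPF3a peaks near LPAR1 (0.49929), ART4 (0.499096) and DUSP4 (0.497925) fell just short.

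The 151 members that touched no SMAD4 peak were well separated from it. None of their p300 peaks touched SMAD4 either (0 of 151). The nearest SMAD4 peak was a median of 21507 bp away (quartiles 6278 and 61091), and it lay within 1000 bp of 10 members. A SMAD4 peak lay within 10000 bp of 47 members (31.1%, 24.3 to 38.9), against 36.5% (35.8 to 37.3) of the DPF3a peaks that were not shared with p300 and touched no SMAD4 peak. The latter, 16457 peaks called DPF3a-only below, may touch p300 by less than the rule asks and serve as the comparison for these 151. A list holds only peaks with a score over 50, which corresponds to a −log10 q above 5, so SMAD4 enrichment below that level cannot be seen here.

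Binding strength is a description, since the lists that chose the members were themselves cut by strength. DPF3a fold enrichment had a median of 5.31 at members touching SMAD4 (quartiles 4.57 and 6.38) and of 6.25 at members touching none (quartiles 5.21 and 7.85). It was 6.74 at sites of all 3 factors and 6.03 at DPF3a-only peaks. The DPF3a summit held a median of 22 reads in both parts of the members. Local background was lower at members touching none, with medians of 2.16 against 3.32 reads for DPF3a and 2.52 against 5.78 reads for p300. For p300 the fold enrichment was 4.32 at members touching SMAD4 and 4.92 at members touching none. The p300 summit held fewer reads at the latter, with a median of 18 (quartiles 16 and 23) against 29 (quartiles 23 and 34). Its median −log10 q was 6.27 at members touching no SMAD4 peak, close to the threshold of 5, and 7.59 at members touching SMAD4. The whole p300 list was also near the threshold, with a median −log10 q of 6.79. Its median height was 23 reads and its median fold enrichment 4.92. The p300 peaks of the 151 members were thus called on few reads, and 11 of the 151 had a score over 100 for both DPF3a and p300, against 66 of the 560 that touched SMAD4. When the SMAD4 list was held to scores over 100 as well, 37 members lay without SMAD4 contact, but against the whole SMAD4 list 22 of them were sites of all 3 factors and 4 were members touching SMAD4.

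**Figure D2:**
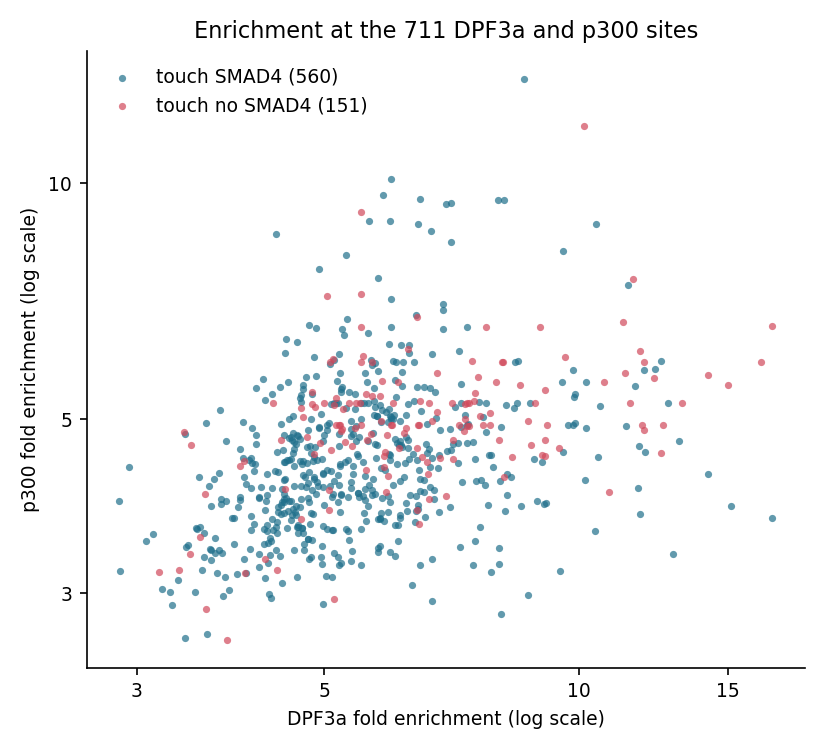
DPF3a fold enrichment (x axis, log scale) against p300 fold enrichment (y axis, log scale) at each of the 711 members, with members that touch SMAD4 in blue and members that touch none in red. The 2 clouds overlap, and the red points have the higher medians on both axes (6.25 against 5.31 for DPF3a and 4.92 against 4.32 for p300). The red points also have the lower median backgrounds (2.16 against 3.32 reads for DPF3a and 2.52 against 5.78 reads for p300). Their summits do not hold more reads (medians 22 and 22 for DPF3a, 18 against 29 for p300).

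The genomic position of the members was compared next, a measure that the rule did not use. Promoters were taken as the 1000 bp before and the 100 bp after any transcript start, and a site was placed by its DPF3a summit. Promoters held 391 of 560 members touching SMAD4 (69.8%, 65.9 to 73.5) but 16 of 151 members touching none (10.6%, 6.63 to 16.5), a difference of 59.2 percentage points (Newcombe interval 52.1 to 64.6). Introns held 50.99% and intergenic sequence 35.1% of the members touching none. Among all members the promoter share was 57.2% (407 of 711), which mixes these 2 kinds of site. It was 52.3% at sites of all 3 factors and 11.5% among the 20252 DPF3a peaks shared with neither, and the members exceeded them by 4.98 points (1.15 to 8.74) and 45.7 points (42.0 to 49.3). The first of these differences depended on what counts as lying without SMAD4. When 1 bp of contact sufficed to leave a site out, it turned to −41.7 points, and the second fell to −0.939 points.

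**Figure D3:**
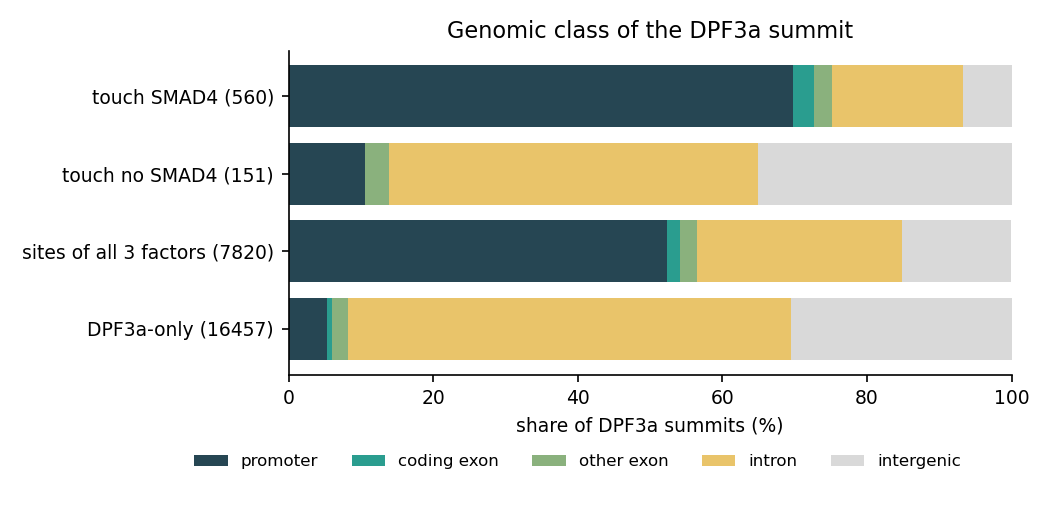
Share of DPF3a summits (x axis, %) in promoters, coding exons, other exons, introns and intergenic sequence for members that touch SMAD4, members that touch none, sites of all 3 factors and DPF3a-only peaks. Promoters hold 69.8% of the first group, 10.6% of the second, 52.3% of the third and 5.26% of the fourth.

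The promoter share of the members touching SMAD4 was 17.6 points above that of sites of all 3 factors (13.5 to 21.4). A summit was called CpG-rich when the 201 bp around it had a GC content of at least 50% and an observed over expected CpG ratio of at least 0.6. The CpG-rich shares were 74.1% and 52.7% (difference 21.4 points, 17.4 to 25.01). The rule chose between these groups partly by the width of the SMAD4 peak. Among SMAD4 peaks between 924.5 and 1483 bp, the quartiles of the members, the promoter shares were 74.0% of 281 members and 74.6% of 2670 sites of all 3 factors, and the CpG-rich shares 79.7% and 76.6%. Within that range the SMAD4 peaks still differed in width, with medians of 1232 bp and 1081 bp, and the DPF3a peaks had medians of 494 bp and 895 bp. Since the width took part in the choice of the members, these shares are a description, and the part of width in the differences was not tested. With scores over 100 for DPF3a and p300 the promoter difference was 12.05 points, with an interval from −0.208 to 22.99.

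At protein-coding promoters, the 345 members that touched SMAD4 within 2000 bp of a canonical start had their DPF3a summit at a median of 1 bp upstream of it (quartiles 322 bp upstream and 124 bp downstream). The SMAD4 summit lay at a median of 10 bp upstream and the p300 summit at 75 bp downstream (p300 quartiles 332 bp upstream and 185 bp downstream). At the 3310 corresponding sites of all 3 factors the p300 summit also lay downstream, at a median of 93 bp. Starts on both strands within 1000 bp of the summit were found for 33 of 560 members (5.89%, 4.23 to 8.16), against 4.48% of sites of all 3 factors. All 33 lay in promoters, whose share differed between these groups (69.8% against 52.3%). In the SMAD4 width range above, the shares were 6.76% and 7.49% (difference −0.729 points, −3.34 to 2.95).

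The members touching no SMAD4 peak were mostly distal, with a median of 67103 bp to the nearest canonical protein-coding start (quartiles 15885 and 210172). Compared with DPF3a-only peaks they had more promoter summits (10.6% against 5.26%, difference 5.33 points, 1.35 to 11.3) and more CpG-rich summits (13.2% against 0.717%, difference 12.5 points, 8.02 to 18.9). The CpG difference also held outside promoters (8.89% against 0.596%, difference 8.29 points, 4.56 to 14.3). Of the 11 members with scores over 100 for DPF3a and p300, 0 had a promoter summit and 0 a CpG-rich one, which is too few to compare. With an overlap of 0.75 the promoter difference was 3.39 points (−1.88 to 15.03). Compared from the p300 side, CpG-rich summits made up 11.9% of their p300 peaks and 13.8% of the 6385 p300 peaks that touched neither other list (difference −1.85 points, −6.18 to 4.34).

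At 7 of the 16 promoter members without SMAD4 contact the summit lay within 1000 bp of a canonical protein-coding start, and they are named although picked after their values were seen. SLC40A1 encodes ferroportin, the cellular iron exporter. DMGDH, which shares its site with BHMT2, encodes dimethylglycine dehydrogenase of one-carbon metabolism. SAA2 encodes an acute phase serum amyloid protein, and TSHZ2 a zinc finger transcription factor. The others were ZDHHC11B, PPFIA2 and QRFPR. DPF3a fold enrichment at these sites ran from 5.24 at QRFPR to 7.54 at SAA2, and p300 fold enrichment from 4.70 at TSHZ2 to 6.56 at ZDHHC11B.

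Motifs were compared at the DPF3a summits, in 101 bp centred on them and on both strands. The control windows of 50 bp lay 500 bp to either side. AP-1, the dimer of FOS and JUN proteins, matched in 67 of 711 members (9.42%, against 1.27% of control windows), 22.05% of all DPF3a summits and 22.6% of DPF3a peaks shared with neither. The 2 parts of the members differed. The match was found in 31 of 151 members touching no SMAD4 peak (20.5%, 14.9 to 27.7) and in 36 of 560 touching one (6.43%, 4.68 to 8.77), a difference of 14.1 points (7.96 to 21.4). The parts also differed in promoter share, and the gap was smaller outside promoters. There the match was found in 21.5% of 135 members touching none and 13.6% of 169 touching one (9.24 to 19.6). No interval is given for that gap, and a difference apart from promoter share was not tested. Over all regions, the members touching none lay 3.49 points below the 24.0% of DPF3a-only peaks. The interval from −9.20 to 3.67 includes 0. With an overlap of 0.25 this difference was −5.26 points (−9.51 to −0.136), which leaves out 0. The members touching SMAD4 lay 7.52 points below the 14.0% of sites of all 3 factors (5.06 to 9.44 points). Among SMAD4 peaks of 924.5 to 1483 bp the shares were 4.63% and 5.96% (difference −1.33 points, −3.46 to 1.91). With scores over 100 for DPF3a and p300 the difference was −4.71 points (−10.3 to 5.11). All members together were 4.53 points below sites of all 3 factors, a difference that turned to 6.58 points above them when 1 bp of SMAD4 contact was excluded.

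Seen from the p300 summit, AP-1 was more common at the members without SMAD4 contact than at p300 peaks without either other factor. The match lay within 50 bp of the p300 summit in 19 of their 151 p300 peaks (12.6%, 8.21 to 18.8) and in 80 of the 6385 p300 peaks touching neither other list (1.25%, 1.01 to 1.56), a difference of 11.3 points (6.94 to 17.6). At members touching SMAD4 it was found in 11 of 560 p300 summits (1.96%), and at sites of all 3 factors in 6.02%. The rule gave every member a DPF3a peak, which the 6385 p300 peaks lack, and 24.0% of DPF3a-only summits held the match. The 11.3 points are therefore a description.

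Among the motifs of CpG-rich promoters, SP/KLF, the box bound by SP1 and Krüppel-like factors, matched in 29.8% of members touching SMAD4 (26.2 to 33.7), 7.95% of members touching none (4.60 to 13.4), 22.5% of sites of all 3 factors, 1.23% of DPF3a-only peaks and 8.28% of all DPF3a summits. The members touching no SMAD4 peak exceeded DPF3a-only peaks by 6.71 points (3.37 to 12.1). In the control windows SP/KLF matched in 21.25% of members touching SMAD4 and 5.30% of members touching none. Much of the share was thus also found beside the summit. YY1 (ATGGCGGC) matched in 14 of 560 members touching SMAD4 (2.50%) and 0 of 151 touching none, against 0.946% of sites of all 3 factors and 0.314% of all DPF3a summits. In the SMAD4 width range above, SP/KLF matched in 31.3% of members touching SMAD4 and 32.2% of sites of all 3 factors, and YY1 in 2.14% and 1.35%.

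The GC-rich SMAD element GGCGCC matched in 85 of 560 members touching SMAD4 (15.2%, 12.4 to 18.4) and in 8 of 151 touching none (5.30%, 2.71 to 10.1), against 9.46% of sites of all 3 factors, 0.444% of DPF3a-only peaks and 3.33% of all DPF3a summits. It overlaps in letters with CpG-rich sequence, and these groups had the same order in the CpG-rich share. In the SMAD4 width range above, the shares were 15.7% of members touching SMAD4 and 13.8% of sites of all 3 factors. The palindrome GTCTAGAC matched in 0 of 711 members, which allows a share of up to 0.537% by the Wilson interval, and in 0.064% of all DPF3a summits.

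Over all regions, other motifs of distal elements were less common at the members touching SMAD4 than at sites of all 3 factors. These groups also differed in promoter share (69.8% against 52.3%). RUNX (TGTGGT or TGCGGT) matched in 9.82% of members touching SMAD4 and 14.1% of sites of all 3 factors (difference −4.25 points, −6.58 to −1.40). It matched in 11.3% of members touching none (difference from sites of all 3 factors −2.81 points, −6.99 to 3.27), and in 17.7% of all DPF3a summits. TEAD (ACATTCC), the element read by the Hippo pathway effectors, matched in 5 of 560 members touching SMAD4 (0.893%) and 2.81% of sites of all 3 factors (difference −1.92 points, −2.56 to −0.691). At members touching none it matched in 4 of 151 (2.65%), a difference of −0.164 points from sites of all 3 factors (−1.82 to 3.81), and it matched in 4.56% of all DPF3a summits. In the SMAD4 width range above, RUNX matched in 8.19% of members touching SMAD4 and 9.74% of sites of all 3 factors (difference −1.55 points, −4.47 to 2.39). TEAD matched there in 0.712% and 1.61% (difference −0.899 points, −1.65 to 0.993), and both intervals include 0. Among the members touching SMAD4, RUNX matched in 28 of 391 in promoters (7.16%) and 27 of 169 outside them (16.0%). In all members outside promoters it matched in 43 of 304 (14.1%). Outside promoters, TEAD matched in 0 of 169 members touching SMAD4, 4 of 135 touching none (2.96%) and 4.71% of sites of all 3 factors. Of the remaining motifs searched, ETS (CCGGAAGT), CRE (TGACGTCA), E-box (CACGTG), NFY (AGCCAAT), STAT (TTCCNGGAA), CTCF, NRF1, HNF1 and NF-kB each matched in under 5% of members. Motif matches are descriptions of sequence and do not show which factor was bound.

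**Figure D4:**
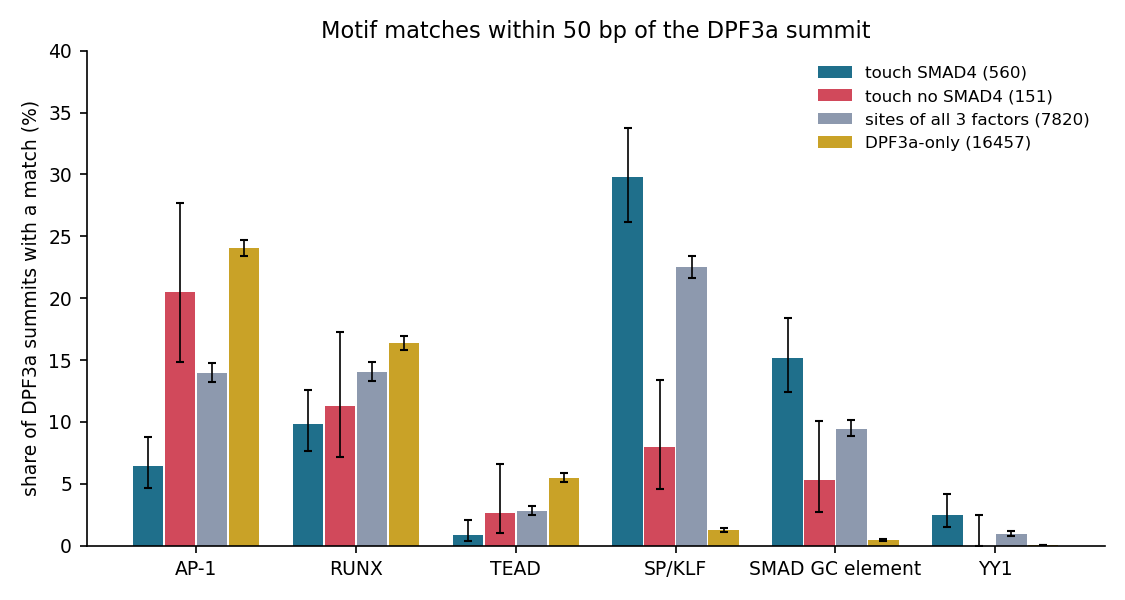
Share of DPF3a summits with a match to each of 6 motifs within 50 bp (y axis, %), for members that touch SMAD4, members that touch none, sites of all 3 factors and DPF3a-only peaks. Bars are shares and error bars are 95% Wilson intervals. AP-1 matches in 20.5% of members touching no SMAD4 peak and 6.43% of those touching one, and SP/KLF in 7.95% and 29.8%.

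The chromosomes of the members were compared because p300 peaks without SMAD4 were unevenly spread, with 38.8% of 6757 such peaks on chromosomes 5, 7 and 8. These 3 chromosomes were thus chosen with the data known. The p300 peaks of the 151 members touching no SMAD4 peak are among the 6757. The shares below are therefore a description and no independent evidence. Chromosomes 5, 7 and 8 held 40 of 151 members touching no SMAD4 peak (26.5%, 20.1 to 34.0), 71 of 560 members touching one (12.7%, 10.2 to 15.7), 17.2% of sites of all 3 factors and 16.9% of DPF3a-only peaks. The first share exceeded that of DPF3a-only peaks by 9.62 points (3.20 to 17.2). It lay below the 39.5% of the 6385 p300 peaks touching neither other list, by 13.0 points (5.34 to 19.5). The excess over DPF3a-only peaks was 2.61 points with an overlap of 0.75 (−6.32 to 16.2) and 4.82 points with summits within 200 bp (−0.140 to 10.7), and both intervals include 0. Of the 11 members with scores over 100 for DPF3a and p300, 9.09% lay on these chromosomes (difference −7.83 points, −15.4 to 20.8). Of the 40 members, 17 lay on chromosome 5, 18 on chromosome 7 and 5 on chromosome 8. These are 11.3%, 11.9% and 3.31% of the 151, against 6.56%, 5.83% and 4.48% of DPF3a-only peaks. Chromosome 9, which was not among the chosen, held 9.27% of the 151 and 4.85% of DPF3a-only peaks. The local p300 background was a median of 2.47 reads at the 40 and 2.52 reads at the 111 others, near the lowest value at any member (2.05 reads), and the DPF3a background 2.13 and 2.16 reads. At the members touching SMAD4 the background was higher on these chromosomes than elsewhere, with medians of 7.28 against 5.62 reads for p300 and 3.92 against 3.28 reads for DPF3a. The part of copy number in these shares was not tested.

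**Figure D5:**
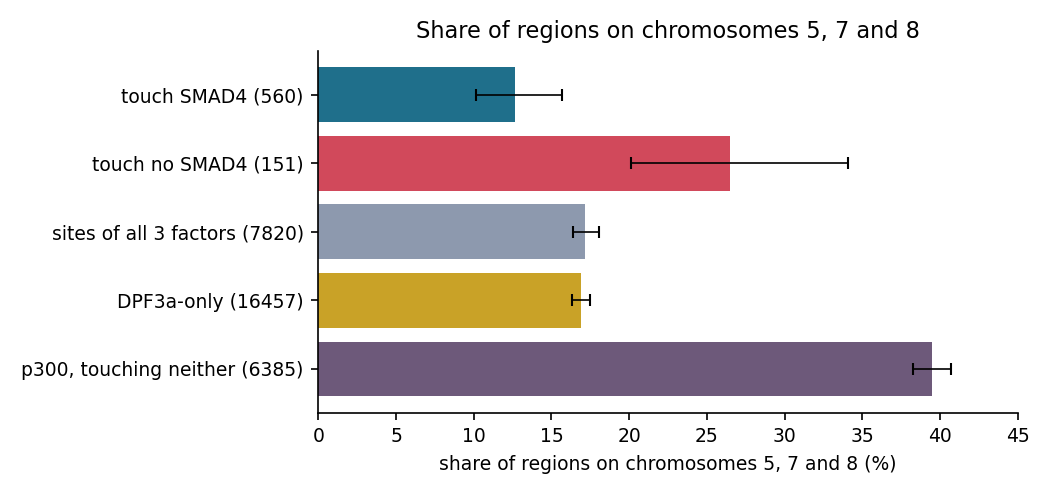
Share of regions on chromosomes 5, 7 and 8 (x axis, %) for members that touch SMAD4, members that touch none, sites of all 3 factors, DPF3a-only peaks and p300 peaks touching neither other list, with 95% Wilson intervals. Members touching no SMAD4 peak lie at 26.5%, between DPF3a-only peaks (16.9%) and p300 peaks touching neither list (39.5%).

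The strongest members were taken by the product of the percentiles of their DPF3a and p300 fold enrichment. All 5 promoter members of highest product touched SMAD4, as did 391 of all 407 promoter members, and in each of the 5 the p300 peak was shared with SMAD4. At CTHRC1, which encodes a secreted collagen triple helix repeat protein, the site (chr8:103372036-103372743) had a fold enrichment of 11.95 for DPF3a, 5.78 for p300 and 7.51 for SMAD4. At CYP2R1, a vitamin D 25-hydroxylase, the values were 9.85, 5.78 and 7.78 (chr11:14890964-14891693). The promoter between SOCS4, a suppressor of cytokine signalling, and the replication factor WDHD1 had 8.16, 9.52 and 12.7 (chr14:55027086-55027495), and its SMAD4 peak covered the whole DPF3a peak but was covered by it to 0.497573 only. The AHI1 promoter (chr6:135497416-135497957), of a gene for a ciliary transition zone protein, had 8.01, 9.52 and 10.1. The promoter of MDH1B and FASTKD2 (chr2:206764928-206765559) had 9.90, 5.39 and 8.11.

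Outside promoters, 3 of the 5 strongest members touched no SMAD4 peak, beside 135 of all 304 members outside promoters. The first lay in an intron of the non-coding gene MIR548XHG, 352655 bp upstream of TMPRSS15 (chr21:18756166-18756740), with a fold enrichment of 16.9 and 63 reads for DPF3a and of 6.57 and 27 reads for p300. The nearest SMAD4 peak was 906566 bp away. The second lay 275374 bp upstream of CDH6, the gene of a kidney cadherin (chr5:30918071-30918702), with 11.6 and 40 reads for DPF3a, 7.55 and 22 reads for p300, and a SMAD4 peak 67607 bp away. The third lay 337235 bp from the GOLGA6L6 start (chr15:20204366-20204884), with 16.4 and 46 reads for DPF3a and 5.91 and 17 reads for p300. Its nearest SMAD4 peak was 2581058 bp away. The first 2 of these hold the AP-1 matches printed above, and the third holds none within 50 bp.

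The other 2 of those 5 touched SMAD4 at a peak narrower than that of DPF3a. In an intron of STIM2, a calcium sensor of the endoplasmic reticulum (chr4:26936525-26937211), the DPF3a peak of 687 bp held the whole SMAD4 peak of 333 bp, with fold enrichments of 11.4 for DPF3a, 7.42 for p300 and 5.41 for SMAD4. At the site 51498 bp upstream of ANXA1 (chr9:73100124-73100738), the gene of the phospholipid-binding annexin A1, the SMAD4 peak was 252 bp wide, with 10.5, 8.86 and 4.41. Next among the members without SMAD4 contact were an intron of ATP11A, a phospholipid flippase (chr13:112859763-112860195, 11.3 for DPF3a and 6.65 for p300), and a site 73957 bp upstream of FCGR1A (chr1:149708551-149708918, 10.1 and 11.8). The latter had 35 p300 reads and 21 DPF3a reads.

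Genes were assigned to a member when its DPF3a summit lay in the gene or up to 5000 bp upstream. Of 20007 protein-coding genes, 697 had a member, a background of 3.48%, and 29.9% had a site of all 3 factors. Both were found at 163 of the 697 (23.4%). No protein-coding gene had 3 or more members. In the 13 gene lists, which were chosen with earlier results of these data known, each list is described by its count of genes with a member, to be set beside those 3.48%.

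TGF-β and BMP pathway genes had a member in 1 of 30, TGFB1, which encodes the ligand itself. The summit (in chr19:41310090-41310516, the promoter of the neighbouring CCDC97) lay within the TGFB1 gene interval, with a fold enrichment of 4.31 for DPF3a, 3.36 for p300 and 8.04 for SMAD4. TGF-β target genes had a member in 0 of 13, and a site of all 3 factors in 5 of 13. Among epithelial-mesenchymal transition transcription factors, 2 of 10 had a member. The ZEB1 promoter site (chr10:31318338-31319516), of a repressor of E-cadherin, was 1179 bp wide inside a SMAD4 peak of 2478 bp, with 4.41, 3.87 and 5.58. ZEB1 was also the 1 of 8 cell movement genes with a member, a list the study picked on its own expression data, which is no independent evidence. FOXC2, a forkhead factor, had a member in an exon (chr16:86566695-86567097), 159 bp downstream of its start, that touched no SMAD4 peak, with 4.69 for DPF3a, 3.73 for p300 and a SMAD4 peak 2432 bp away.

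SWI/SNF subunits had a member in 2 of 26. ARID2 and PHF10 both belong to the PBAF form of the complex, in which PHF10 occupies the place that DPF proteins take in BAF. The ARID2 site (chr12:45728768-45729244) lay in the promoter and had 4.48 for DPF3a, 3.92 for p300 and 5.92 for SMAD4. The PHF10 site (chr6:169722569-169723071) lay in an intron around a SMAD4 peak of 200 bp, with 5.16, 5.25 and 3.13. Histone acetylation genes had a member in 3 of 22. KAT6B, an acetyltransferase, had it in the promoter over a SMAD4 peak of 1897 bp. HDAC4, a class IIa deacetylase, had it in an intron without SMAD4 contact (chr2:239319303-239319694), with 5.60 for DPF3a and 4.31 for p300.

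Among hypoxia genes 1 of 12 had a member. It was EGLN1, the prolyl hydroxylase that marks HIF-α for degradation, whose promoter sequence is printed above. Its fold enrichment was 7.21 for DPF3a, 6.11 for p300 and 9.85 for SMAD4, and the SMAD4 peak was 1774 bp wide against 839 bp for DPF3a. RUNX genes had a member in 1 of 4 (RUNX1, at a promoter inside the gene), AP-1 subunits and their partners in 1 of 18 (MAFK, with the highest DPF3a fold enrichment of the listed genes, 8.71), Hippo effectors and targets in 1 of 15 (VGLL4), and renal lineage factors in 0 of 11. Each of these 3 sites touched SMAD4.

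Replication-dependent histone genes had a member in 3 of 69. H3C2 and H4C2 were assigned the same site, in the coding exon of H3C2 (chr6:26031694-26032069), with 8.47 for DPF3a and 5.93 for p300, and H4C8 had 1 in its promoter (4.85 and 4.47). Cytosolic ribosomal protein genes had a member in 5 of 82 (RPL12, RPL27A, RPL39, RPS12 and RPS3), all in promoters and all touching SMAD4, against a site of all 3 factors in 18 of 82. DPF3a fold enrichment at these 5 ran from 4.31 at RPL12 to 5.41 at RPS3, and SMAD4 fold enrichment from 6.85 at RPL27A to 10.5 at RPS3. Fold enrichments of different lists are not on a common scale.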

How the data were processed

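The 6 ChIP-seq libraries of 786-O cells were assigned to DPF3a, SMAD4 or p300 by title. The authors aligned adapter-trimmed reads to hg38 (Bowtie2 2.3.5.1). They discarded alignments with MAPQ under 30, mitochondrial alignments and Picard duplicates, and ran MACS2 2.2.5 on the rest. No control library is named in the sources used here, and the lists carry no correction for regions that gain reads without binding. Per the labels each list comes from both replicates.

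The deposited score is 10 times the −log10 q rounded down, and the authors kept scores over 50. The deposited fold enrichment is the ratio of summit pileup to local background, each plus 1. The deposited −log10 p and −log10 q compare the pileup with a Poisson distribution. Summit height in reads and background were recovered from fold enrichment and −log10 p. All are used within 1 list. Summit positions were taken from the deposited offsets.

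Overlap of 0.5 of both peaks followed the study's methods. The code was checked against bedtools 2.31.1, which gave the same 711 members and the same 560 that touch SMAD4. Annotation was GENCODE 44, with coordinates counted from 1. Sequence was read from hg38, in windows free of exons and off chromosome 8. Shares have Wilson intervals and differences of shares Newcombe intervals (statsmodels 0.14.6), which cover counting error only, and medians have quartiles and no test. The code was tested on simulated data. Motifs (16) were exact consensus matches on both strands.

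The members, motifs and gene lists were chosen with earlier results of these data known. The regions named are the 5 promoter members, 5 other members and 5 members without SMAD4 contact of highest product of fold enrichment percentiles, more than 20000 bp from an assembly gap, those nearest the threshold, genes with 3 or more members, and listed genes with a member. Genes named for promoter members without SMAD4 contact were added after the values were seen. Alternatives were scores over 100, overlaps of 0.25 and 0.75, exclusion by 1 bp of contact, summits within 200 bp, regions near gaps or in coding exons left out, other promoter definitions, wider motif windows and regions outside promoters. A range of SMAD4 width common to both groups, and scores over 100 for DPF3a and p300 beside the whole SMAD4 list, were added after seeing the data. 1 site just outside the overlap rule and 1 site of the histone acetylation list are not reported here.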

Additional observations from a re-analysis of the deposited data

How the results depend on the processing

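No paired analysis was possible because each factor has 1 list made from both replicates, so that leaving out a replicate was not possible either. The number of members, 711, was 151 when 1 bp of SMAD4 contact excluded a site, 380 with an overlap of 0.25, 99 with scores over 100 in every list, 77 with scores over 100 for DPF3a and p300 beside the whole SMAD4 list, and 1069 with summits within 200 bp. Excluding sites by 1 bp of contact gave a promoter share of 10.6%, an AP-1 share of 20.5% and a share on chromosomes 5, 7 and 8 of 26.5%. It turned the differences from sites of all 3 factors to −41.7 (promoters), 6.58 (AP-1) and 9.30 points (chromosomes), and those from DPF3a peaks shared with neither to −0.939 points (promoters) and −2.06 points (AP-1, interval including 0). With an overlap of 0.25 the 3 shares were 29.7%, 13.9% and 23.4%, and the differences from sites of all 3 factors −22.0, 0.169 and 6.46 points. With scores over 100 in every list the promoter share was 43.4% and the AP-1 share 14.1%, with differences of −7.09 and −1.15 points, and the chromosome difference of members without SMAD4 contact from DPF3a-only peaks was −6.03 points. That setting also drops SMAD4 peaks, so a second, chosen after seeing the data, kept the SMAD4 list whole. It gave a promoter share of 53.2% and an AP-1 share of 13.0%, with differences from sites of all 3 factors of 3.17 and −2.33 points, and for 11 members without SMAD4 contact differences from DPF3a-only peaks of −4.74 (promoters), −0.502 (CpG-rich) and −7.83 points (chromosomes), whose intervals all include 0. The AP-1 share was 15.9% in windows of 100 bp to either side, 17.1% outside promoters and 7.39% with summits within 200 bp. The promoter share was 67.1% when promoters reached 1000 bp to either side and 53.2% for protein-coding genes. In a common range of SMAD4 width the promoter difference between members touching SMAD4 and sites of all 3 factors was −0.548 points. Contact, overlap, score and summit settings change which sites are members, and the cause of the shifts was not tested further. Reads are few at members without SMAD4 contact, with a median of 18 at the p300 summit.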
